A study of Homo sapiens with 2 samples.

Results

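The peaks described here are the tag-rich JARID2 peaks that lie over a transcription start site (TSS) in MDA-MB-231, an established human triple-negative breast cancer line. They were chosen by 3 values of the authors' annotated peak list, namely an annotation to a promoter within 1 kb, a distance of 0 to the nearest TSS and at least 40 tags, which are the sequenced fragments counted in a peak. The rule gave 601 peaks, or 0.896% of the 67071 peaks listed and 16.4% of the 3668 peaks that overlap a TSS. The other 3067 TSS-overlapping peaks, with 9 to 39 tags, are the comparison set. The study made 1 chromatin immunoprecipitation (ChIP) library with a polyclonal antibody against JARID2 and 1 input library that was not precipitated, both from untreated, formaldehyde-fixed cells of the same line. The JARID2 ChIP peak list was analysed here, and the input library was not. With 1 ChIP library there is no replicate, so every tag count, fold enrichment and false discovery rate (FDR) is the authors' value for a peak and carries no test.

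JARID2 is an accessory subunit of Polycomb repressive complex PRC2, the enzyme that methylates histone H3 at lysine 27. It binds nucleosomes and DNA itself, helps to bring PRC2 to CpG-rich promoters and stimulates its activity, and it is best known for this role in embryonic stem cells and development. Variant PRC1.6, another Polycomb complex, contains the sequence-specific factors E2F6 and MGA and is known for keeping germline genes silent in somatic cells.

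An E2F-type sequence recurred in the promoters with the highest enrichment. The 8 letters TTTCCCGC, searched on both strands of the 300 bases from 250 before to 50 after the RefSeq start, were found in 7 of the 30 matched promoters of tag-rich peaks with a fold enrichment of at least 20, a class set after values were seen. The share was 6.19% over all 452 matched promoters of tag-rich peaks and 2.18% over 15843 protein-coding promoters. At folds of 10 to 20 it was 3.61% of 83. Other motifs also had their highest share at 20-fold or more, among them the ETS-type CCGGAAG in 11 of 30. The 7 matches are printed because they carry the E2F-type letters. Each is 30 bases in the direction of transcription from RefSeq (GRCh38.p14), with the letters or their reverse complement in capitals.
HLTF, chr3:149086709-149086738, minus strand: ggcctcgtggcTTTCCCGCgcgcccgcctt
WDR36, chr5:111092132-111092161, plus strand: ttccctctttgTTTCCCGCccttgcggttc
DHX40, chr17:59565462-59565491, plus strand: cgtggcagttgGCGGGAAAtccctgggggg
CDC16, chr13:114234812-114234841, plus strand: ctcgggtccgtTTTCCCGCgccagatggga
CNTD1, chr17:42798871-42798900, plus strand: tggccgttgggGCGGGAAAaagctgtggag
C19orf57 (BRME1), chr19:13906068-13906097, minus strand: gacctcgcggggcGCGGGAAAgaggcagag
SYCE2, chr19:12919254-12919283, minus strand: cgagcttgaagGCGGGAAAatacggaatgg

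HLTF encodes a DNA translocase of damaged replication forks, WDR36 a nucleolar factor of ribosomal RNA processing, DHX40 a DEAH-box helicase and CDC16 a subunit of the anaphase-promoting complex. CNTD1, C19orf57 and SYCE2 are meiosis genes, known from mouse to act in crossover formation, recombination and the synaptonemal complex. Counted from the RefSeq start, with negative positions upstream, the letters began at -194 in HLTF, -205 in WDR36, -137 in DHX40 and -74 in CDC16. In CNTD1, C19orf57 and SYCE2 they began downstream, at bases 22, 34 and 22. The peaks are placed on hg19, and whether the RefSeq start is the start under the peak could not be checked by position. The length of the listed transcript differed from the RefSeq gene span by at most 100 bp for HLTF, DHX40, CDC16, C19orf57 and SYCE2, but by 632 bp for WDR36 and 959 bp for CNTD1. Longer stretches are shown for 3 genes with span differences of 75, 85 and 32 bp, to place the E2F-type letters among other motifs. Each is the 250 bases before the RefSeq start on GRCh38.p14, with all searched motifs except the GCC pair in capitals.
HLTF, chr3:149086534-149086783, minus strand: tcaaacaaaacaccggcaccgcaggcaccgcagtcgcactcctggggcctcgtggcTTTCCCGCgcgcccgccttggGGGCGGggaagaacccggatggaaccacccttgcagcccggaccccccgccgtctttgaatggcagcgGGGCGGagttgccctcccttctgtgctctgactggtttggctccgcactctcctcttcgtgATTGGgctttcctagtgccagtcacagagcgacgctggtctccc
DHX40, chr17:59565360-59565609, plus strand: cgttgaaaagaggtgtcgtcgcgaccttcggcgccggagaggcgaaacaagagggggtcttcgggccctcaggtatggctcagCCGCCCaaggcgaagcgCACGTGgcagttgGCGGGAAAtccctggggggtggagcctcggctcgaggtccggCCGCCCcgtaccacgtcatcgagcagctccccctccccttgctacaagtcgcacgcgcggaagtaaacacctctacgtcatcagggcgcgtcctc
SMC1B, chr22:45413600-45413849, minus strand: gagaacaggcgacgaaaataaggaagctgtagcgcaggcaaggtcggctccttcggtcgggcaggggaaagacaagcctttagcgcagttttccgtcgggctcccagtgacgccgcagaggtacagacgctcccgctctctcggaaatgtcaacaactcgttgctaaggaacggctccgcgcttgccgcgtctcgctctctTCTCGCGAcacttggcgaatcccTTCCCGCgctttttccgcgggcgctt

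The HLTF stretch held TTTCCCGC, GC boxes (GGGCGG) and 1 CCAAT box in reverse (ATTGG), and 65.6% of its bases were G or C. DHX40 held an E-box (CACGTG) shortly before the reversed E2F-type letters, with GC boxes as CCGCCC on either side. SMC1B, a cohesin subunit of meiosis, held the motif TCTCGCGA and the 7-letter core TTCCCGC, but not the 8 letters TTTCCCGC. Its CpG count was 29 in 250 bases, against 20 in HLTF and 28 in DHX40.

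Tag-rich peaks were wide, and most were only moderately enriched. They held a median of 51 tags (interquartile range 44 to 62, highest 583), against 23 (18 to 29) in TSS-overlapping peaks with 15 to 39 tags and 12 (10 to 13) in those with 9 to 14. Their median width was 1331 bp (1066 to 1596), against 770 bp and 473.5 bp. Widths of at least 1000 bp were reached by 489 tag-rich peaks (81.4%) and by 403 of 3067 peaks with fewer tags (13.1%). The sets were divided by tags, and in the peaks with fewer tags width rose with tags (Spearman's rho 0.90). The selection fixes the difference in tags and can set the difference in width by itself, so nothing is read from either. Median fold enrichment, the linear ratio of ChIP tags to the peak caller's background, was 6.67 (4.98 to 9.70), against 5.91 (5.09 to 7.06) over all 3067 peaks with fewer tags. A fold below 5 was listed for 153 tag-rich peaks (25.5%) and for 700 with fewer tags (22.8%), so high tag counts and high enrichment did not coincide in every peak.

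Enrichment ran against width among the tag-rich peaks. Across the 601 peaks Spearman's rho was -0.48 between width and fold, 0.38 between tags and width and 0.22 between tags and fold. In the 3067 peaks with fewer tags the same values were -0.15, 0.90 and -0.03. These are descriptions over peaks of 1 library that share its depth and the caller's settings. A narrow peak reaches the limit of 40 tags only with more tags per kb than a wide one needs. The limit can therefore set width against fold by itself, here and in the widths by fold class below. The same limit caps the peaks with fewer tags. Its part was not tested, and nothing is read from the difference between tag-rich peaks and those with fewer tags. The median width was 941.5 bp in the 40 tag-rich peaks with a fold of at least 20, 1078 bp for folds of 10 to 20, 1235 bp for 7 to 10, 1407 bp for 5 to 7 and 1542 bp below 5. The median tag count was 74 in the 40 peaks with the highest folds and between 48 and 55 in the other classes.

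**Figure D1:**
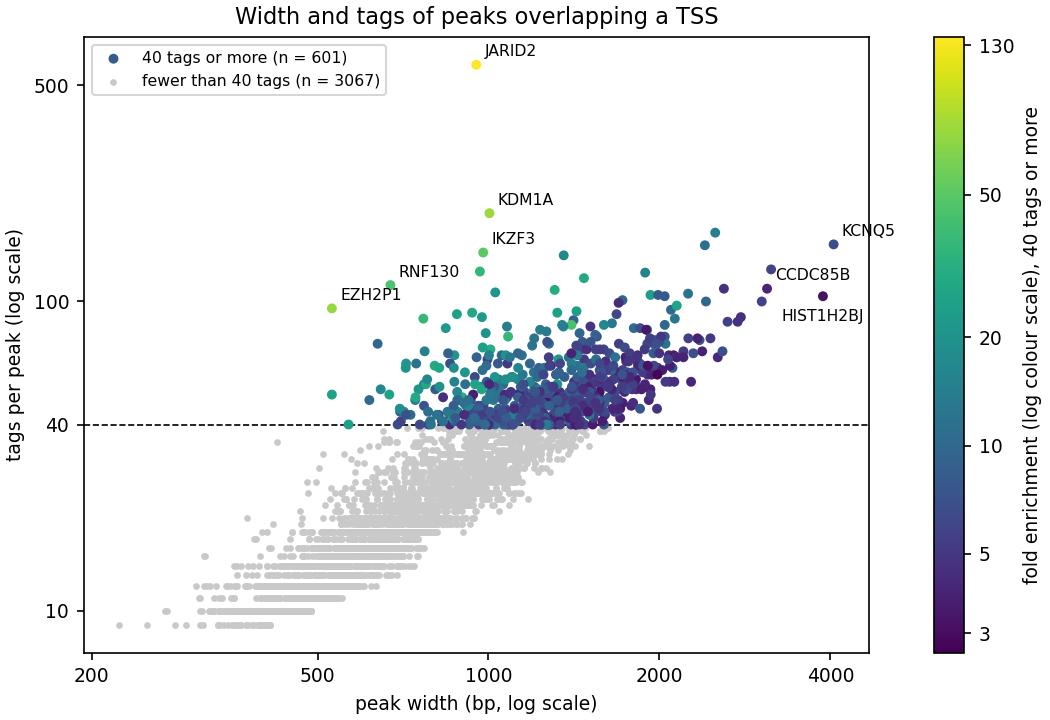
Tags per peak (log scale) against peak width in bp (log scale) for all 3668 peaks over a TSS; coloured points are the 601 tag-rich peaks, shaded by fold enrichment, and grey points the 3067 with fewer tags. The dashed line is the limit of 40 tags, and the peaks with the highest folds lie towards the narrow side while KCNQ5, at 4054 bp, is the widest.

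Support by FDR also divided the set. The authors' FDR was at most 5% for 312 tag-rich peaks (51.9%, 95% exact interval 47.8 to 56.0), against 141 of 3067 (4.60%) with fewer tags and 12.4% of all TSS-overlapping peaks. It was 0 for 150 tag-rich peaks and for 16 of 3067 with fewer tags. It was above 20% for 165 tag-rich peaks (27.5%), against 2615 of 3067 (85.3%). A fold of at least 10 was listed for 143 tag-rich peaks (23.8%) and for 135 with fewer tags (4.40%), beside 7.58% of all TSS-overlapping peaks. Tags enter both the FDR and the selection, so nothing is read from these differences. Within the set, peaks with an FDR of 0 had a median fold of 13.97 and a median width of 1075.5 bp, against 4.41 and 1435 bp where the FDR was above 20%.

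The limit of 40 tags is not a break in the data. There were 42 peaks at exactly 40 tags and 44 at 39. Those just inside with the best p-values were ARFGAP3 (an Arf GTPase-activating protein, fold 23.84), EXD1 (a piRNA pathway protein, 12.73), the long non-coding RNA LINC00674 (10.04), PGK1 (a glycolytic kinase, 10.16) and TMEM194B (7.94). Those just outside were TFR2 (transferrin receptor 2, 18.54), LACTB2 (15.59), FRG1 (14.30), PPIF (mitochondrial cyclophilin, 12.54) and ECHDC1 (11.32). A count of 40 has a 95% Poisson interval of 28.6 to 54.5 and one of 39 of 27.7 to 53.3, so counting error does not separate the 2 sides.

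The 15 peaks with most tags ranged in width from 672 to 4054 bp and in fold from 3.97 to 137.44. JARID2 itself had 583 tags (95% Poisson interval 537 to 632) at 137.44-fold over 952 bp (hg19 chromosome 6, 15500789 to 15501740), at the start of a transcript inside the gene. KDM1A, a histone H3 lysine 4 demethylase, had 193 tags at 77.61-fold over 1004 bp (chromosome 1, 23345760 to 23346763). These values are uncertain as promoter signals, because JARID2 and KDM1A carried 7 and 8 further peaks of at least 10-fold elsewhere in the gene, reaching 123.69 and 84.67. EZH2P1, a processed pseudogene of the PRC2 methyltransferase EZH2, had 95 tags at 75.19-fold over 530 bp (chromosome 21, 36971833 to 36972362), and reads of EZH2 and its copy may be hard to tell apart. IKZF3, the lymphoid factor Aiolos, had 144 tags at 50.30-fold over 979 bp (chromosome 17, 38019961 to 38020939). RNF130, a RING-finger ubiquitin ligase, had 113 tags at 44.63-fold over 672 bp (chromosome 5, 179498947 to 179499618). All of these had an FDR of 0.

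Other peaks of high fold varied in width. GLS2, the liver-type glutaminase, had 84 tags at 43.27-fold over 1400 bp. CSTF3, a subunit of the mRNA cleavage stimulation factor, had 77 tags at 36.81-fold over 1083 bp. Clone-named transcripts RP11-423C15.3, RP11-220I1.1 and AC025335.1 had 125, 109 and 119 tags at folds of 36.38, 30.14 and 28.54, over 966, 1308 and 1473 bp. The other genes at 20-fold or more included SEH1L (a nucleoporin, 29.14), DHDDS (dolichol synthesis, 28.19), SPOP (a ubiquitin ligase adaptor, 22.26) and TK2 (mitochondrial thymidine kinase, 20.97). A peak of 105 tags at 23.84-fold over 1929 bp on chromosome 11 (5245606 to 5247534) was named for the beta-globin co-transcriptional cleavage ribozyme.

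The 5 widest peaks had folds of 3.16 to 6.65. KCNQ5, a voltage-gated potassium channel gene, had the widest peak, 4054 bp with 153 tags at 6.65-fold (chromosome 6, 73330211 to 73334264). HIST1H2BJ, a replication-dependent H2B gene, had 104 tags over 3882 bp at 3.16-fold with an FDR of 47.1%. UQCC1, an assembly factor of respiratory complex III, had 127 tags over 3146 bp at 5.88-fold. CCDC85B had 110 tags over 3095 bp at 3.97-fold, and CDKN1A, the cell cycle inhibitor p21, 110 tags over 2598 bp at 4.66-fold. A clone-named transcript on chromosome 14 had 100 tags over 3029 bp at 5.76-fold. Other wide peaks had higher folds, among them WDR36 (97 tags, 2146 bp, 25.99-fold), the zinc finger gene ZNF783 (106 tags, 2247 bp, 11.56-fold), MDC1 (a mediator of the DNA damage checkpoint, 167 tags, 2508 bp, 14.13-fold), CNPY3 (a chaperone of Toll-like receptors, 152 tags, 2405 bp, 11.03-fold) and FAM208A (TASOR, a subunit of the HUSH silencing complex, 124 tags, 1888 bp, 15.94-fold). ATL3, an endoplasmic reticulum GTPase, had 141 tags over 1357 bp at 16.77-fold. The narrowest were EZH2P1 and C9orf91 at 530 bp, ARFGAP3 at 567 bp, C19orf38 at 617 bp and CDK5RAP3 at 638 bp, with folds between 9.92 and 75.19.

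Summits of tag-rich peaks lay on both sides of the TSS. The median summit was 8 bp downstream (interquartile range -224 to 268, negative values upstream), with 306 summits downstream (50.9%) and 295 upstream. In peaks with fewer tags the median was 27 bp (-135 to 174) and 53.8% lay downstream. Summits within 250 bp of the TSS made up 304 of 601 tag-rich peaks (50.6%, exact interval 46.5 to 54.7), against 2234 of 3067 (72.8%, 71.2 to 74.4). A peak that covers the TSS can place its summit no farther away than its own width, so the larger distances of the wider peaks are partly set by their width. Among tag-rich peaks the share within 250 bp was 62.5% for folds of at least 20 and 40.5% for folds below 5.

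Summits more than 1000 bp from the TSS were found in 17 tag-rich peaks and in 1 peak with fewer tags. Among the farthest were those of SET (a histone chaperone, 1723 bp), CCDC85B (1667 bp), NANP (a sialic acid phosphatase, 1664 bp) and NNT (mitochondrial transhydrogenase, 1486 bp). These 4 lay downstream and had folds between 3.84 and 5.66. IKZF3 and C9orf91, at 50.30-fold and 25.40-fold, had their summits 19 and 6 bp upstream (-19 and -6), next to the start.

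**Figure D2:**
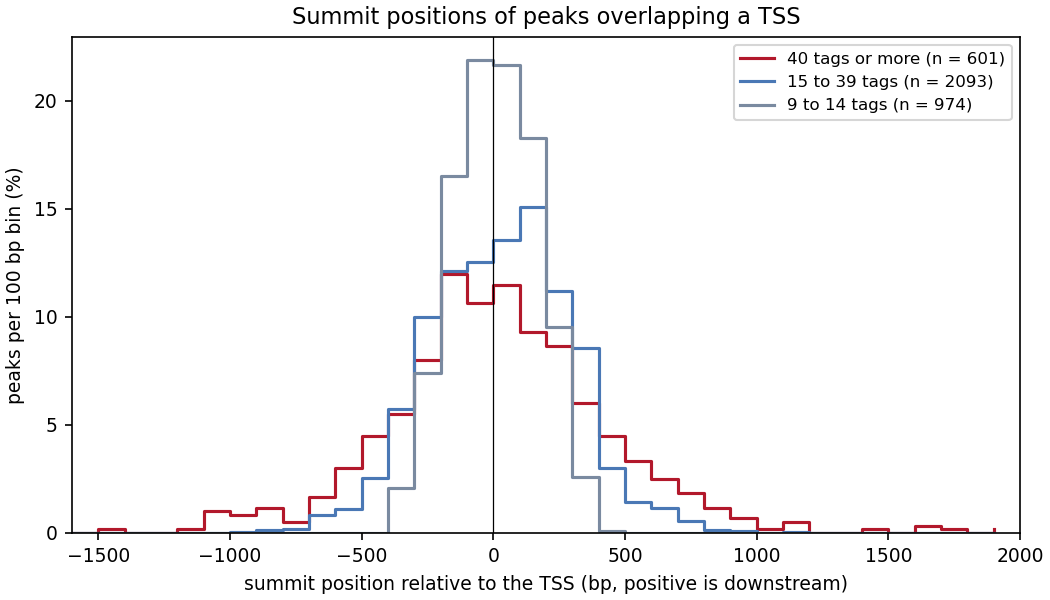
Share of peaks (%) in each 100 bp bin of summit position relative to the TSS (bp, positive downstream), for 601 tag-rich peaks, 2093 peaks with 15 to 39 tags and 974 with 9 to 14 tags. The tag-rich peaks spread widest, with 50.6% within 250 bp, against 65.3% and 89.1%.

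Most tag-rich peaks were given to protein-coding genes. Of the 601, 554 matched a RefSeq gene by symbol and 529 (88.0%, 85.2 to 90.5) a protein-coding one, against 2448 of 3067 (79.8%, 78.4 to 81.2) among peaks with fewer tags. Pseudogenes took 7 (1.16%) and 105 (3.42%), and long non-coding or antisense RNA genes 15 (2.50%) and 71 (2.31%). In all, 519 of 20037 protein-coding genes had a tag-rich peak (2.59%) and 2768 had any TSS-overlapping peak. A divergent RefSeq start of another gene lay within 1 kb for 100 of 439 genes with a tag-rich peak (22.8%, 18.9 to 27.0), against 395 of 1899 (20.8%, 19.0 to 22.7) with fewer tags and 2900 of 15843 protein-coding genes (18.3%). The first 2 intervals overlap. Each peak was given to 1 transcript, so a promoter shared by neighbours counts for 1 gene, and reads do not show which of them it belongs to.

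The genes covered many cellular functions. Of the 519 genes, 136 (26.2%) stood on at least 1 of 23 gene lists, against 17.9% of 2290 genes with fewer tags and 16.5% of all protein-coding genes. The lists were written by hand with earlier results of these data known, and their counts are read beside the 2.59% of all protein-coding genes and the median fold of 6.67. No list was tested. Of 39 HOX genes, the clustered homeobox genes of body patterning, 0 had a tag-rich peak, and HOXD1 and HOXA10 had peaks of 16 and 15 tags. Among 102 other developmental and lineage factors IKZF3 alone had one, while a limit of 30 tags gave 6. These are small counts beside 2.59% of all genes, and no depletion is read from them. Of 390 olfactory receptor genes 2 had any TSS peak and 0 a tag-rich one.

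Of 14 PRC2 subunit genes, 2 (14.3%) had a tag-rich peak, JARID2 and EZH1 (the alternative methyltransferase, 81 tags, 13.95-fold). EZH2 had TSS peaks of 35 and 25 tags, the accessory genes C17orf96 and AEBP2 had 39 each, and the histone-binding subunit RBBP7 had 14. A limit of 30 tags gave 5 PRC2 genes, and 1 remained in the set when peaks given to JARID2, EZH2 and KDM1A were left out. Of 33 PRC1 and PRC1.6 genes, 3 (9.09%) had one, each with an FDR of 0. E2F6, the E2F-type repressor of PRC1.6, had 83 tags at 13.99-fold (chromosome 2, 11605418 to 11606495). MGA, its MAX-dimerising scaffold, had 62 tags at 11.61-fold, and HDAC2, a histone deacetylase, 57 tags at 18.80-fold. Of 42 histone demethylase and acetylation genes, 4 (9.52%) had one. KDM3A, an H3 lysine 9 demethylase, had 60 tags at 11.10-fold beside KDM1A, while KDM2A and the acetyltransferase KAT5 had 4.98-fold and 4.16-fold with FDRs of 14.4% and 39.6%.

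Genome maintenance genes were more frequent in the set than protein-coding genes in general. Of 109 cell cycle and replication genes, 11 (10.1%) had a tag-rich peak, with a median fold of 8.21, and 8 had an FDR of at most 5%. CDC16 had 65 tags at 21.83-fold, POLE4 (a small subunit of DNA polymerase epsilon) 79 at 19.53-fold and RFC1 (the clamp loader's large subunit) 56 at 18.19-fold. RBL1, the pocket protein p107, and the replication factor MCM10 had 6.61-fold and 6.86-fold, and the helicase subunit MCM7 had 3.51-fold with an FDR of 48.8%. Of 62 DNA repair genes, 8 (12.9%) had one, with a median fold of 8.32, and 7 had an FDR of at most 5%. TOPBP1, an activator of the ATR kinase, had 45 tags at 18.53-fold and ATRIP, the ATR partner, 43 at 13.99-fold. MDC1 is also on this list, and FANCE, a Fanconi anaemia complex subunit, had 43 tags at 4.90-fold with an FDR of 46.2%.

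Meiosis genes had a higher median fold than any other list with at least 3 tag-rich peaks. This list of 80 meiosis and piRNA pathway genes was added after the values were seen. It had 14 genes with a TSS peak and 9 with a tag-rich one (11.2%), all 9 with an FDR of at most 5% and with a median fold of 20.86. HSF2BP, a BRCA2-binding protein, had 49 tags at 28.77-fold, and SMC1B had 52 at 27.37-fold. ZCWPW1, a reader of histone marks at recombination sites in mouse, had 91 tags at 25.01-fold. CNTD1, C19orf57 and SYCE2 had 59, 63 and 61 tags at 21.22-fold, 20.86-fold and 20.37-fold. EXD1, the mismatch repair gene MLH3 and the crossover gene MSH5 had 12.73-fold, 9.22-fold and 5.82-fold. In the other 5 genes, the peaks of C14orf164 (RNF212B), TEX14, DMC1, MND1 and DDX4 held 10 to 22 tags at folds of 4.32 to 8.36, with FDRs of 37.4% to 48.0%. The tags that set these 5 apart also enter the FDR, so nothing is read from that difference.

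Genes of protein synthesis and energy metabolism had median folds on either side of the 6.67 of the whole set. Of 88 cytosolic ribosomal protein genes, 8 (9.09%) had one, with a median fold of 5.74, among them RPS13 at 8.92-fold and RPL6 at 4.85-fold, and 4 had an FDR of at most 5%. Ribosomal protein genes have many processed copies, so their reads may be shared. Of 77 mitochondrial ribosomal protein genes, 17 had a TSS peak and 0 a tag-rich one. Of 103 respiratory chain genes, 5 (4.85%) had one, among them COX20 and ATP5L, with a median fold of 4.85, and 0 had an FDR of at most 5%. Of 103 translation factor and tRNA synthetase genes, 5 had one, with a median fold of 7.03, from the isoleucyl-tRNA synthetase IARS at 4.16-fold to the initiation factor EIF3B at 12.57-fold. EEF1A1, the elongation factor, had 99 tags at 4.32-fold. Of 34 hypoxia and glycolysis genes, 3 (8.82%) had one, with a median fold of 10.16, the glycolytic genes GAPDH (8.69-fold) and PGK1 (10.16-fold) and KDM3A.

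RNA processing and transcription genes were spread over the range. Of 87 splicing factor genes, 6 had one (6.90%), from SRSF1 at 4.48-fold to SRSF6 at 8.66-fold. Of 22 cleavage and polyadenylation genes, CSTF3 alone had one. Of 118 RNA polymerase and general transcription factor genes, 5 had one (4.24%), with the RNA polymerase III subunit POLR3G at 16.98-fold and the general factor GTF2A1 at 12.70-fold. Of 32 nuclear pore genes, 3 had one (9.38%), SEH1L, NUP98 (48 tags, 14.03-fold) and NUP153 (50 tags, 4.04-fold, FDR 36.0%). The 3 peaks at genes of this 1 complex thus spanned folds of 4.04 to 29.14.

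The large families came closer to the background. Of 600 numbered zinc finger genes, mostly transcriptional repressors, 23 (3.83%) had a tag-rich peak, led in tags by ZNF783 (106, 11.56-fold) and in fold by ZNF785 (49 tags, 30.02-fold). Of 330 proteasome and ubiquitin pathway genes 15 (4.55%) had one, of 383 solute carriers 16 (4.18%), of 232 TMEM genes 9 (3.88%) and of 245 RAB and vesicle traffic genes 6 (2.45%). The median folds, taken over peaks and not over genes, were 6.72, 6.33, 6.45, 7.64 and 5.96. Within these families MFSD3, a transporter family member, had 100 tags at 9.89-fold and RAB8A, a vesicle GTPase, 53 tags at 19.23-fold. Of 73 replication-dependent histone genes, 4 (5.48%) had one, HIST1H2BJ, HIST1H4C, HIST1H4B and HIST1H3C, at 3.16-fold to 6.58-fold, and 0 had an FDR of at most 5%. Histone genes of the same family are similar in sequence, so some of their tags may be shared among them.

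**Figure D3:**
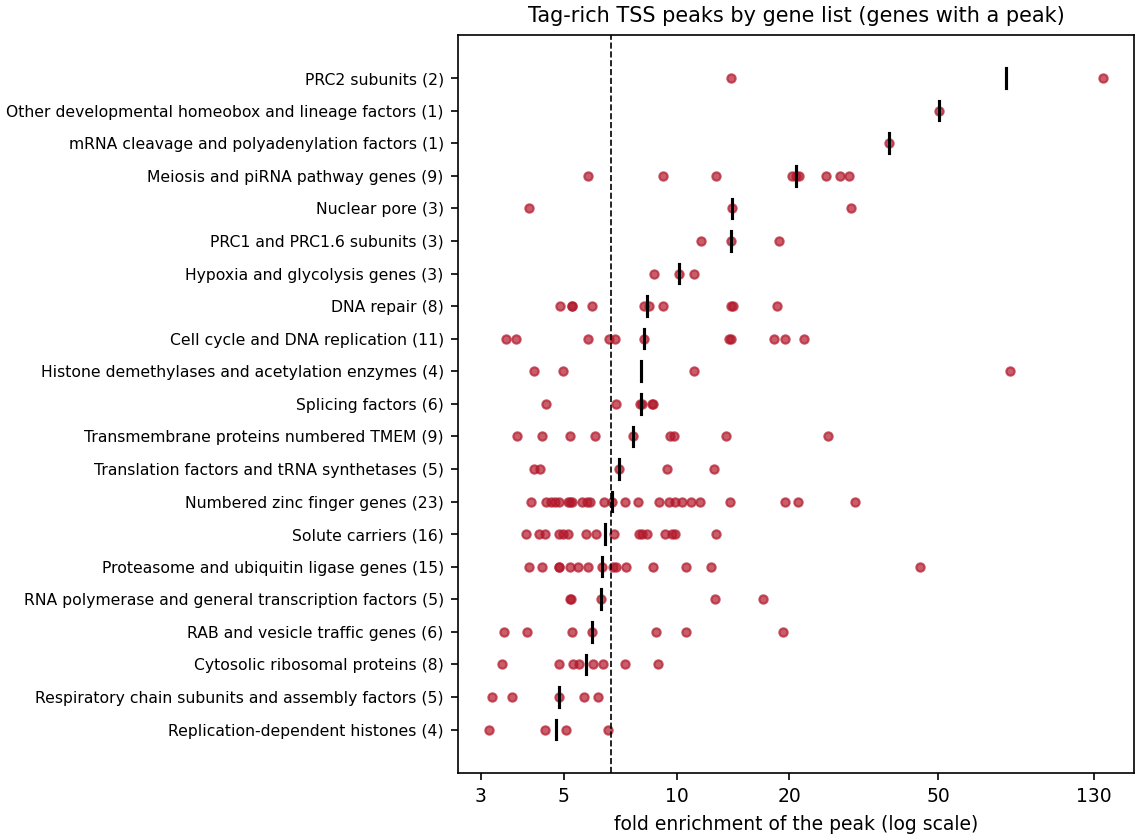
Fold enrichment (log scale) of tag-rich TSS peaks by gene list, with the number of genes in brackets; each point is a peak, black ticks are list medians and the dashed line is the median of all 601 peaks, 6.67. Points of the meiosis list lie between 5.82 and 28.77, and those of the respiratory chain and histone lists lie below 6.67.

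RefSeq promoters of genes given a tag-rich peak were mostly CpG-rich. A RefSeq promoter of 300 bases was matched by symbol for 452 genes. Of these, 388 (85.8%, exact interval 82.3 to 88.9) had at least 50% GC and an observed over expected CpG ratio of at least 0.6. The share was 78.7% (76.8 to 80.5) of 1916 promoters of peaks with fewer tags and 63.4% (62.6 to 64.2) of 15843 protein-coding promoters. The median CpG ratio was 0.874, against 0.835 and 0.763, and the median GC content 65.3%, against 64.7% and 62.7%. The CpG-rich share was 93.3% of 30 promoters at folds of at least 20 and 82.2% of 118 at folds below 5. In the 98 promoters of peaks with fewer tags but a fold of at least 10 it was 86.7%. Whether a RefSeq start lies under its peak could not be checked by position, here or for the motif shares below. For 151 promoters of the tag-rich set the listed transcript differed from the RefSeq gene span by at most 100 bp. Of these, 92.1% were CpG-rich and 7.95% held TTTCCCGC, a check added after values were seen.

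E2F-type letters were most frequent at the highest folds. TTTCCCGC was found in 28 of 452 promoters of tag-rich peaks (6.19%, 4.16 to 8.83), against 58 of 1916 (3.03%, 2.31 to 3.90) for peaks with fewer tags and 345 of 15843 protein-coding promoters (2.18%). By fold, it was found in 23.3% of 30 promoters at 20-fold or more (9.93 to 42.3), 3.61% of 83 at 10 to 20, 6.25% of 96 at 7 to 10, 6.40% of 125 at 5 to 7 and 3.39% of 118 below 5. In the 98 promoters of peaks with fewer tags and at least 10-fold it was found in 5.10%. The core TTCCCGC, added after these values were seen, was found in 13 of 30 promoters at 20-fold or more (43.3%, 25.5 to 62.6), 19.2% of all 452, 10.3% of those with fewer tags and 8.60% of protein-coding promoters. The fold classes were also set after values were seen, and a match is a description of letters, not a binding site. A highest share at 20-fold or more was not particular to these letters, since other motifs given below had it too.

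The other motifs are given as shares without a test. The E-box CACGTG was found in 16.2% of promoters of tag-rich peaks (exact interval 12.9 to 19.9), 12.5% of those with fewer tags and 8.88% of protein-coding promoters. The ETS-type CCGGAAG was found in 21.5% (17.8 to 25.5), 17.6% (15.9 to 19.4) and 14.2%. For both motifs the intervals of the first 2 sets overlap. The NRF1-type GCGCATGCG was found in 6.42% (4.34 to 9.08), 3.39% (2.63 to 4.30) and 2.76%. None of the 3 moved steadily with fold, and neither did the E2F-type letters. Like those letters, all 3 had their highest share in the promoters at 20-fold or more. So did the CCAAT box (43.3%), TCTCGCGA (2 of 30, 6.67%) and GAGAGAGA (1 of 30, 3.33%). CCGGAAG was found in 36.7% of the 30 promoters at 20-fold or more (19.9 to 56.1), 19.3% at 10 to 20 and 20.3% below 5. The E-box was found in 23.3% (9.93 to 42.3), 13.3% and 16.9%, and in 20.8% at 7 to 10. GCGCATGCG was found in 13.3% (3.76 to 30.7), 7.23% and 8.47%. The GC box GGGCGG, found in 68.4%, 67.2% and 58.5%, was the most frequent of the motifs searched in all 3 sets. The YY1-type AAGATGGCG (3.10%, 3.44% and 2.74%), the CRE TGACGTCA (2.43%, 2.56% and 2.59%), the CCAAT box (34.7%, 34.1% and 36.4%) and the motif TCTCGCGA (2.21%, 2.35% and 1.75%) were about as frequent in each. The TATA box TATAAA was found in 4.87%, 5.64% and 9.63%, and GAGAGAGA in 1.33%, 2.56% and 3.12%, the opposite order. The pair GCCGCC, which overlaps some GC boxes, was found in 53.3%, 54.6% and 45.8%, and no other motif pair was checked for overlap except the E2F-type letters, which contain their core.

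**Figure D4:**
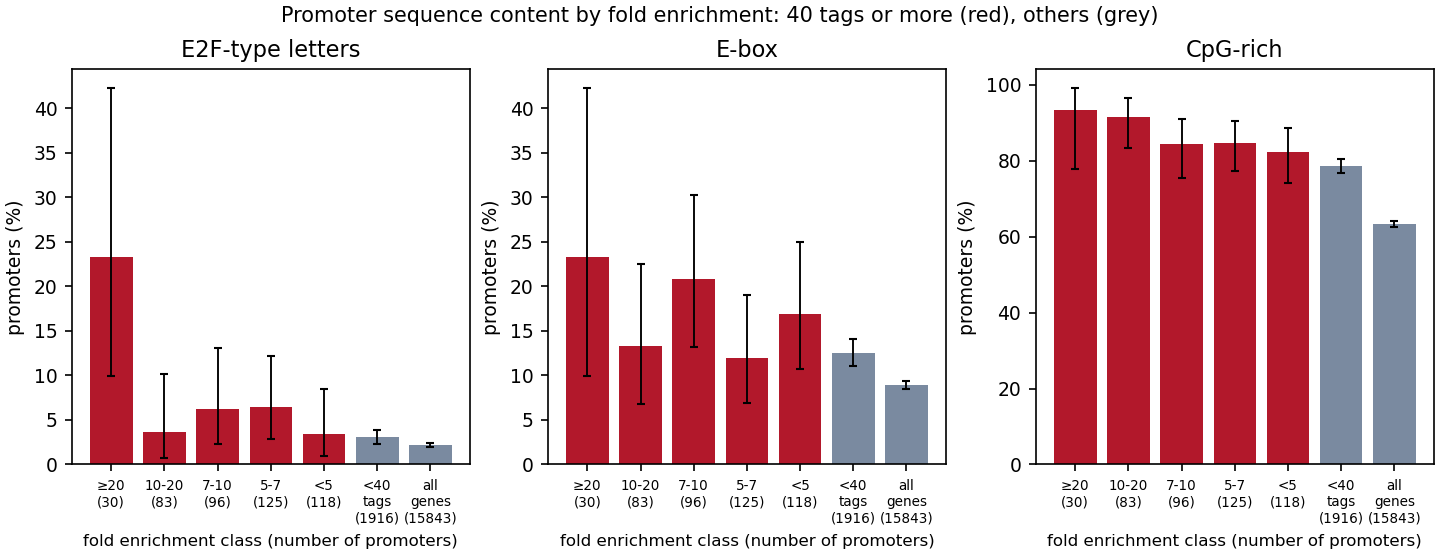
Share of promoters (%) with the E2F-type 8 letters, the E-box and a CpG-rich composition, by fold enrichment class of tag-rich peaks (red), beside peaks with fewer tags and all protein-coding genes (grey); bars start at 0 and whiskers are 95% exact intervals that cover counting error only. The E2F-type share is 23.3% at 20-fold or more and at most 6.40% in the other classes.

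The tag-rich set was unevenly spread over chromosomes. At least 40 tags were held by 30 of 90 TSS-overlapping peaks on chromosome 20 (33.3%, exact interval 23.7 to 44.1), 58 of 181 on chromosome 6 (32.0%, 25.3 to 39.4) and 77 of 248 on chromosome 11 (31.0%, 25.3 to 37.2). The share was lowest on chromosomes 13 (3 of 58, 5.17%), 15 (6 of 114, 5.26%), 22 (3 of 57, 5.26%) and 16 (8 of 132, 6.06%). The 3 chromosomes with the highest shares held 165 of the 601 peaks. On these 7 chromosomes fold ran the other way. The median fold of tag-rich peaks was 5.82, 5.20 and 5.74 on chromosomes 20, 6 and 11, against 21.10, 12.18, 23.84 and 14.81 on chromosomes 13, 15, 22 and 16. The order did not hold over all chromosomes, since chromosome 12 had a median fold of 5.04 and a tag-rich share of 11.6%.

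Among tag-rich peaks, an FDR of at most 5% was listed for 7 of 30 tag-rich peaks on chromosome 20, 17 of 58 on chromosome 6 and 28 of 77 on chromosome 11, and for all 20 on chromosomes 13, 15, 16 and 22. Over all TSS-overlapping peaks, which the tag limit did not choose, that FDR was listed for 11.1%, 12.7% and 12.9% on chromosomes 20, 6 and 11 and for 8.62%, 13.2%, 14.4% and 10.5% on 13, 15, 16 and 22, with no such contrast. Among all TSS-overlapping peaks, folds of at least 10 made up 5.56%, 5.52% and 4.03% on chromosomes 20, 6 and 11, against 9.65% to 15.9% on chromosomes 13, 15, 16 and 22, and chromosomes 12, 14 and 9 were low as well, at 4.23%, 4.41% and 4.72%. The tag density of all listed peaks moved with these shares, at a median of 25.9, 25.2 and 25.8 tags per kb on chromosomes 20, 6 and 11, against 23.4, 23.7, 23.9 and 23.9 on 13, 15, 22 and 16. Its part in the spread over chromosomes was not tested.

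**Figure D5:**
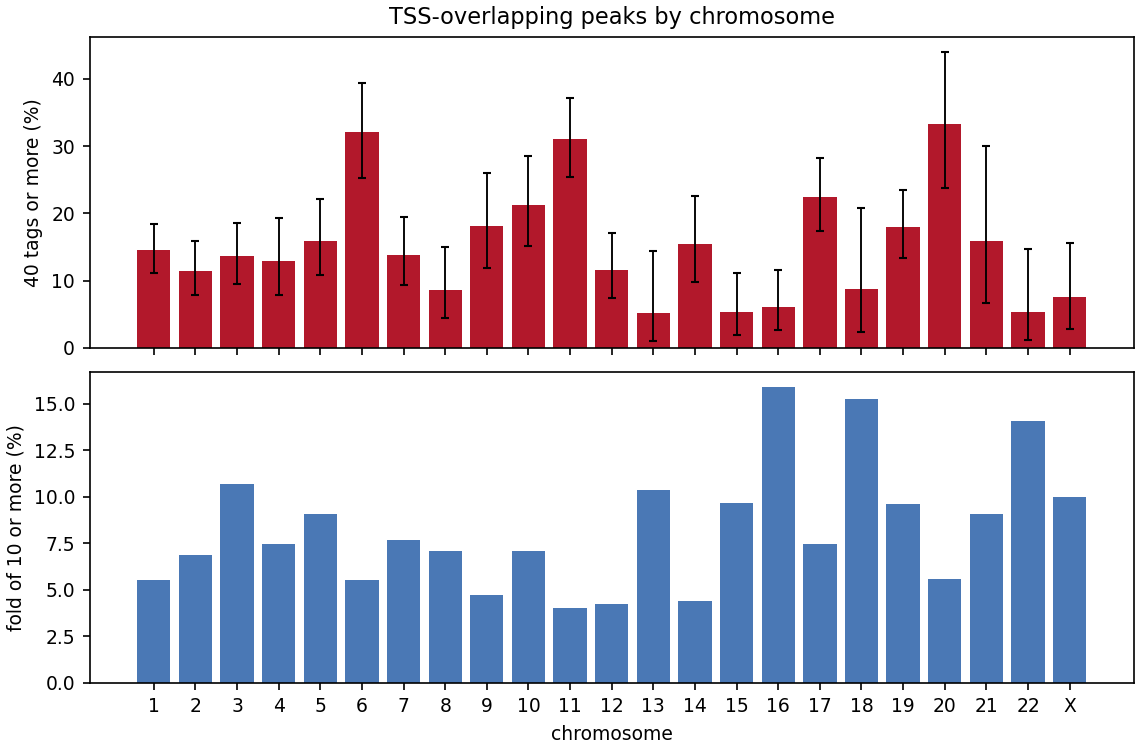
Upper bars, share (%) of TSS-overlapping peaks with at least 40 tags on each chromosome, with 95% exact intervals; lower bars, share (%) with a fold enrichment of at least 10. Chromosomes 20, 6 and 11 are highest in the upper bars, and chromosome 16 is highest in the lower ones, at 15.9%.

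Tag-rich peaks away from a TSS were fewer than those over one. Of the 1099 peaks with at least 40 tags (1.64% of all peaks), 498 did not overlap a TSS. The 601 peaks together held 34338 of 1000395 tags in listed peaks (3.43%) over 828.4 kb. Another listed peak lay within 2 kb of 88 of them (14.6%, 11.9 to 17.7), against 534 of 3067 (17.4%, 16.1 to 18.8) with fewer tags.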

How the data were processed

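JARID2 ChIP and input libraries of MDA-MB-231 were made by the submitters, and the annotated peak list of the ChIP library was used. The submitters' processing notes name ChIPseeker, MACS2, MACS, bcl2fastq and Bowtie 0.12.8, and the hg19 build. Roles and settings, any duplicate filter included, were not given in the sources used here. Tags are a deposited whole-number count per peak, not normalised. Fold enrichment is the deposited ratio of ChIP to background, on a linear scale. The FDR is a deposited percent. A deposited score with an unreadable header and a lowest value of 30 was read as −log10 p multiplied by 10. Library depth is unknown, since only peaks are listed. Transposase fragmentation and PCR, per the labels, mean that tags need not be independent molecules, so all intervals cover counting error only.

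Members were selected on annotation, distance and tags. Members, gene lists and motifs were chosen with earlier results of these data known, and 1 of 24 lists (meiosis), the 7-letter core, the fold classes and the printed sequences were added after values were seen. Symbols were matched to RefSeq (GRCh38.p14) by symbol or synonym. 47 peaks had no match, and 1 symbol had been turned into a date. Summit position was taken from the list's own gene coordinates and strand. Intervals were exact Clopper-Pearson (shares) or Poisson (tags), at 95%. The genes named are the 15 with most tags, the 10 of largest fold, the 5 widest, narrowest and farthest, 5 on either side of the limit, up to 6 per list and genes with at least 2 peaks. CNTD1, C19orf57, HLTF and the other genes of fold 20 or more, HSF2BP, SMC1B, TOPBP1, ATRIP, FANCE and MCM7 and the TSS peaks of fewer tags at meiosis, PRC2 and HOX genes fall outside this rule and were chosen after their values were seen. A few genes picked by this rule are not reported here. Python 3.11.15, numpy 2.4.6, pandas 2.3.3, scipy 1.17.1 and matplotlib 3.10.9 were used, and the counting scripts were tested on simulated data. Alternatives were other tag limits, FDR, p and density limits, other start-site and gene rules, promoter windows and comparison sets.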

Additional observations from a re-analysis of the deposited data

How the results depend on the processing

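A limit of 30 tags gave 1116 peaks, with a median width of 1156.5 bp and 4.82% of protein-coding genes, and a limit of 60 tags gave 177 peaks, 1596 bp and 0.774%, with 45.2% of summits within 250 bp. Keeping an FDR of at most 5% gave 312 peaks, 1183.5 bp and 1.38% of genes, and keeping −log10 p of at least 5 gave 1277.5 bp and 2.15%. At least 40 tags per kb in place of 40 tags gave 925 bp, 65.4% of summits within 250 bp, 91.4% protein-coding and 1.86% of genes. Against genes with a TSS-overlapping peak, the share of genes with a tag-rich peak was 18.8% in place of 2.59%. The 7-letter E2F core, an alternative added after the data were seen, was found in 19.2% of promoters. Where the listed transcript had the RefSeq span, also added later, 92.1% of promoters were CpG-rich. With fewer than 15 tags in place of fewer than 40, 73.9% of comparison promoters were CpG-rich. Of 192 list counts under these alternatives, 53 moved by over 1.5 times. At 30 tags and at 40 tags per kb, mitochondrial ribosomal genes numbered 4 and 2 in place of 0, cytosolic ribosomal genes 14 and 2 in place of 8, cell cycle genes 15 and 5 in place of 11, DNA repair genes 12 and 5 in place of 8, and meiosis genes 9 under both. The causes of these shifts were not tested, apart from the altered limits themselves. No paired analysis was possible because the study has 1 ChIP library and no replicate. Depth of the libraries is unknown, so the tag limit cannot be related to sequencing depth.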

Other observations

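Among the 591 symbols with a tag-rich peak, 9 had more than 1. MDC1 had 3, of 167, 53 and 41 tags at 14.13-fold, 8.45-fold and 5.95-fold, all with an FDR of at most 5%. ZFP36L1, an mRNA decay factor, had 63 and 41 tags at 7.88-fold and 9.92-fold. FJX1 had 51 and 46 tags at 9.47-fold and 5.94-fold, with FDRs of 0.32% and 3.34%. ZNF783 had 106 tags at 11.56-fold and 48 at 5.20-fold. Both peaks of AHNAK, FKBP5 (a co-chaperone of steroid receptors), SEC14L1 and RBM4 (a splicing regulator) had FDRs of 17.6% to 46.6%, at folds of 3.46 to 7.28.

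Alternative starts of 1 gene could differ in kind. EZH1 had a tag-rich peak of 81 tags at 13.95-fold and a second TSS peak of 18 tags at 5.87-fold with an FDR of 45.9%. Tags of 1 gene's peaks are not replicates of each other.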
